A study of Mus musculus with 6 samples.

Results

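The cytosolic ribosomal protein genes were followed in mouse gastrocnemius muscle from late embryo to adult. Of 23367 gene entries in the deposited table, 84 were taken, 50 with symbols of the large subunit (Rpl) and 34 of the small subunit (Rps). They are the entries whose symbol starts with Rpl or Rps and a digit, together with Rplp0, Rplp1, Rplp2 and Rpsa. A further 17 entries with the same start were left out, namely the Rps6k kinases, the symbols with -ps for pseudogene, Rpl3 and its muscle paralog Rpl3l. The choice by letters also takes in Rps19bp1, which encodes a nucleolar protein that binds Rps19 and is not a ribosomal protein, and misses genes such as Fau and Gnb2l1, which encode ribosomal proteins under other names.

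The ribosome is built from a large and a small subunit, each a scaffold of ribosomal RNA carrying a set of small basic proteins, most of them present in a single copy per particle. The messenger RNAs of these proteins are among the most abundant in growing cells, and nearly all start with a run of pyrimidines, the 5′ terminal oligopyrimidine (TOP) motif, through which mTOR and the RNA-binding protein Larp1 control how much of them is translated. Several members have a near copy elsewhere in the genome, a paralog, and mammalian genomes also hold many processed pseudogenes made from their RNA.

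Libraries were made from polyadenylated RNA of the gastrocnemius, a calf muscle, of wild type FVB mice at E18.5, PN2, PN14, PN28 and 22 weeks (adult), where E is embryonic day and PN postnatal day. PN14 had 2 replicates, each from 1 mouse, and the other stages had 1 library each, so that only PN14 gives a spread between animals. The E18.5 and PN2 libraries were pools of RNA from several mice and the PN28 and adult libraries came from 1 mouse each, and all mice were male except at E18.5, where the pool held both sexes. Each library had a sequencing lane of its own in the column names, so lane and stage cannot be told apart, and neither can pooling and age.

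The counts on genes came to between 125402932 and 157868359 per library, and 83 of the 84 members were among the 16882 genes kept for testing. Fold changes were fitted on the TMM scale, on which edgeR sets the bulk of genes to no change between libraries, and calls required an adjusted p under 0.05 (edgeR quasi-likelihood test, Benjamini-Hochberg) together with a change of 2-fold or more. The TMM factors ran from 0.714 in the adult to 1.45 at E18.5, and scaling to library size alone moved the median of all genes from −0.05 to −1.08 for E18.5 to adult and from −0.01 to −0.66 for PN2 to PN14 (log2). Directions are therefore given beside the median of all genes. A scaling moves the values of all genes by nearly the same amount, so the members' distance from that median is nearly fixed in advance. It was between −0.29 and −0.30 for E18.5 to adult under all 4 scalings tried, which is no separate support for it. All 10 myofibre markers were present in every library, with Acta1 at 11979 FPKM or more. Their summed FPKM was 36102 at E18.5 and 149230 in the adult. The summed FPKM of 16 proliferation genes was 439 at E18.5 and 27.5 in the adult, that of 8 fibroblast genes 7124 and 521, and that of 6 endothelial genes 201 and 74.8. For 10 erythroid genes the sum went from 8938 at E18.5 to 1567 at PN2, and the adult had 393. In whole muscle, fewer cells of a type and less RNA per cell cannot be told apart, and the part of these cells in the results below was not tested.

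The promoters shown here are the starts of members that lay at the edges of the group later in the text, with a few for comparison. Of the 84 members, 64 were matched to a promoter in the RefSeq table of the GRCm38.p6 build. Each line gives 30 bases of the sense strand, 5′ to 3′, around the longest run of C and T found from 30 bases before to 50 after the annotated start, with that run in capitals.
Rps19 (chr7:24884612-24884641, + strand): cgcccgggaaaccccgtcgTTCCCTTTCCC
Rpl41 (chr10:128549119-128549148, - strand): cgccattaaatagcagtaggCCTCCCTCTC
Rpl39 (chrX:37085173-37085202, - strand): gttcttccggtcccggCCTTTCTCTTCTCC
Rpl7a (chr2:26910788-26910817, + strand): cacaaTTCCCTCTTCTTTCTTTCTCCagca
Rpl36a (chrX:134585672-134585701, + strand): cggctctagCCTCTCTCTTTCCgagctgct
Rpl36al (chr12:69184020-69184049, - strand): gctctgttcgTCCCTTTCCTgttcggcgcg
Rps27 (chr3:90213632-90213661, - strand): ttccgctttcgCTCCTTTCCggcggtgacg
Rps27l (chr9:66946053-66946082, + strand): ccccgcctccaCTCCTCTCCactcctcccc
Rpl24 (chr16:55966294-55966323, + strand): ggaagtgacatcaTCTCTgggcgccggggt

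Among the 64 promoters, 49 (76.6%) held a run of 8 or more pyrimidines in that window, against 32.3% of 27025 genes, and 42 (65.6%) held a run of 10 or more, against 16.1%. The longest run within the window, of 21 bases, was in Rpl7a. Members at both edges of the group had runs. Among members with a mean of at least 10 CPM, Rps19, Rpl41 and Rpl39 had the lowest fold changes from E18.5 to adult. Their runs, of 11, 10 and 14 bases, stop at the last base of the window, so the full runs may be longer. Rps27l and Rpl36al, with the highest fold changes, had runs of 9 and 10 bases. The 15 without a run of 8 were Rps3a1, Rps13, Rps16, Rplp0, Rps4x, Rpl24, Rpl27, Rpl23, Rpl22, Rps19bp1, Rps28, Rpl10l, Rpsa, Rps3 and Rpl7l1. The annotated start may lie off the true start, and a run in the window is a match of letters only.

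Over the whole 300 bases of each promoter and on both strands, CTTCCG, the core that Ets factors such as Gabpa bind, was in 68.8% of the members and in 18.8% of all genes. GGGCGG, the Sp1 box, was in 64.1% against 38.2%. GCCATCTT, which holds the core of the Yy1 motif, was in 9.38% against 3.19%. TATAAA, the TATA box, was in 10.9% against 15.7%, and CACGTG, the E box that Myc binds, in 9.38% against 8.09%. The members' promoters therefore held the Ets and Sp1 letters more often than those of all genes, while the shares for the E box lay close together.

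The members took up more of the RNA before and just after birth than later. Their share of the counts on genes was 4.59% at E18.5, 3.85% at PN2, 1.77% and 2.49% for the PN14 mice, 1.68% at PN28 and 1.82% in the adult. As a share of summed FPKM, which divides by gene length, it was 13.3%, 11.5%, 4.36%, 6.24%, 4.15% and 4.78% in the same order. Both measures put E18.5 first, PN2 next and the 4 later libraries well below, with PN28 lowest. The E18.5 share was 2.74 times that of PN28 on counts and 3.21 times on FPKM. The later libraries lay closer together, and the difference between the PN14 mice was larger than that between PN14 replicate 1, PN28 and the adult, so the order of PN14, PN28 and adult cannot be told from these libraries.

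**Figure D1:**
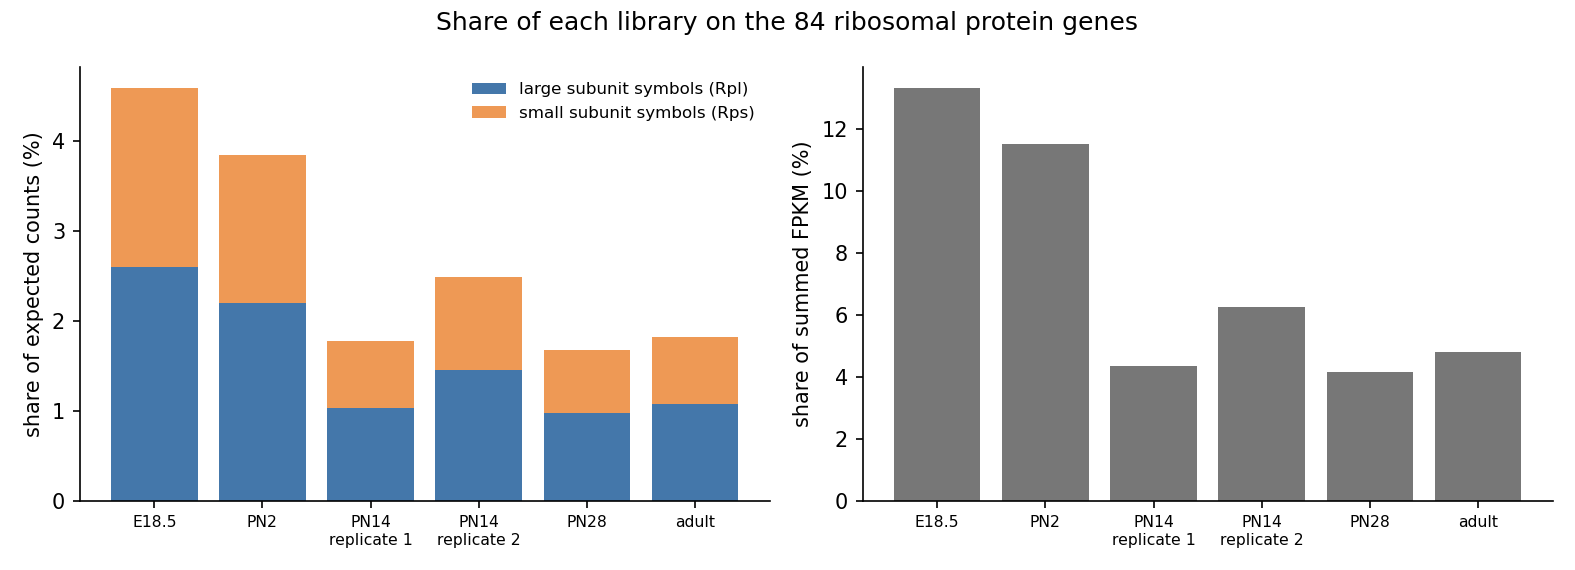
Share of each library that fell on the 84 ribosomal protein genes, as a percent of the expected counts on genes (left, with the large and small subunit symbols stacked) and as a percent of summed FPKM (right); bars are single libraries, so there are no error bars. E18.5 and PN2 hold 4.59% and 3.85% of the counts and the 4 later libraries between 1.68% and 2.49%.

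On FPKM, 80 members had their highest library at E18.5, where 43.3% of all genes tested did, and 81 had E18.5 and PN2 both above all 4 later libraries, where 61% of all genes did. On TMM-normalized CPM, 42 of the 83 members tested had both early libraries above the later ones, against 34.8% of all genes, so the order on FPKM is shared with much of the table. The median FPKM of all gene entries was itself 1.49 at E18.5 and between 0.46 and 0.90 in the later libraries. The lowest library was PN28 for 55 members and the adult for 18. The adult lay above PN28 for 64. The number of members among the 100 genes with the highest FPKM was 44 at E18.5, 40 at PN2, 4 and 12 for the PN14 mice, 6 at PN28 and 10 in the adult. The balance of the subunits moved little, with the small subunit symbols at 45.0% of the members' FPKM at E18.5 and 43.5% in the adult.

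Levels were spread widely among the members. The median of their mean FPKM over the 6 libraries was 467, with quartiles of 333 and 633. The highest were Rplp1, an acidic protein of the stalk that recruits elongation factors, at a mean of 1178 FPKM, Rpl41, a peptide of few residues that bridges the subunits, at 1082, Rps2, near the mRNA entry site, at 980, Rplp0, the base of the stalk, at 894, and Rpl23a, which lies at the tunnel exit where nascent chains leave, at 854. Rpl41 had the highest FPKM of all members at E18.5 and PN2, with 2086 and 1645, but 488 in the adult, where Rplp1 was at 870 and Rps2 at 741. The order at the top thus differed between E18.5 and the adult. Only PN14 has a spread, and there Rplp1 had 821 and 1115 and Rps2 846 and 1044, so these neighbours did not differ beyond the difference between the mice.

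At the other end, 9 members had a mean under 50 FPKM, and for several the count depends on how reads were shared with a copy. Rpl34 had 11.4 FPKM at E18.5 and 7.68 in the adult, while Rpl34-ps1, which the rule leaves out, had 1030 and 363. The entry with the pseudogene name carried 96.8% to 98.4% of the counts of the pair in every library. Rps27, a zinc-binding protein of the small subunit, had 2354, 1235, 69, 725, 82 and 138 counts from E18.5 to adult, and the length implied by its counts and FPKM varied between 306 and 524 bases among libraries. Rpl26, Rpl30, Rpl7l1, Rps19bp1, Rps4y2 and Rpl39l were the other detected members under 50. Rpl10l, a retrogene on chromosome 12 known from testis, had 0 counts in all 6 libraries, where 3 counts correspond to 0.019 to 0.0239 CPM. FPKM also depends on the gene model, since Rps15a had an implied length of at least 5092 bases for a coding sequence of 393.

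Copies in the genome were frequent. For 82 members with a coding sequence in GENCODE M1, the sequence was searched in the mm9 genome, and 75 had at least 1 copy outside their own locus that covered at least 90% of it at 95% identity or more. The median was 5 copies, and Rpl21 had the most with 55, followed by Rpl7a with 31 and Rpl29 with 28. At 99% identity, 54 members had a copy. Among those with 0 at 95% were Rps27l, Rps4y2, Rpl39l, Rpl8, Rps3 and Rps19bp1. Values of the members with copies are uncertain to the extent that reads were split among copies, and the size of that was not tested.

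From E18.5 to PN2 the members' values lay slightly below those of all genes, in a narrow band. The fitted log2 fold change was negative for 82 of 83, with a median of −0.25 against −0.01 for all 16882 genes tested. Their interquartile range was 0.125, against 0.446 for all genes. Neither here nor in the later comparisons were the members set beside genes of like abundance, so the part of count noise in this difference was not tested. No member was called by edgeR's quasi-likelihood test, where 0.0296% of all genes were, none had an unadjusted p under 0.05, and 0 were called by DESeq2 or by the exact test of edgeR. The smallest p was that of Rpl22l1, the paralog of the RNA-binding protein Rpl22, which had 65.6 normalized CPM at E18.5 and 45.2 at PN2 (log2 −0.54 ± 0.24 SE, adjusted p = 0.816). Rps26, which contacts mRNA upstream of the start codon, had log2 −0.41 ± 0.29 (adjusted p = 0.955).

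From PN2 to PN14, when 23% of all genes were called, 1 member was. The members' median was −0.22 against −0.01 for all genes, 67 had a negative value and 16 a positive one, and the interquartile range was 0.285 against 1.24. Scaled to library size alone, the median was −0.86 against −0.66, and 81 of 83 were negative. On that scale 22 members were called lower, where 29.4% of all genes were. The distance from the median of all genes, which a change of scaling leaves nearly fixed, was −0.20 on either scale. With the libraries scaled to the members themselves, a scaling chosen after the data were seen, 2 were called where 26.7% of all genes were. Without PN14 replicate 1 the median was −0.10 and without replicate 2 it was −0.35.

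The called member was Rps4y2, an autosomal relative of Rps4x on chromosome 6 (chr6:148303178-148304120 in mm9, + strand), also named Rps4l and now annotated as a transcribed pseudogene. It had 9.53 normalized CPM at E18.5, 8.24 at PN2, 2.53 and 2.76 for the PN14 mice, 1.97 at PN28 and 1.23 in the adult. Every later library lay below PN2, and the step from PN2 to PN14 was log2 −1.64 ± 0.25 (adjusted p = 0.00901). Among members of at least 10 CPM, the lowest values were those of Rps19, Rps20, Rps4x and Rps23, with log2 between −0.77 and −0.52, and none of the 4 passed the test.

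In the opposite direction, 2 members passed the adjusted p but not the 2-fold limit, where 31.5% of all genes passed the adjusted p. Rps27l, the paralog of Rps27 and a known p53 target, had 34.8 normalized CPM at E18.5, 32.3 at PN2, 64.1 and 59.0 for the PN14 mice, 73.0 at PN28 and 73.1 in the adult. Rpl36al, an autosomal copy of the X-linked Rpl36a, had 86.1, 77.9, 146, 136, 141 and 137 in the same order. On this scale the 4 later libraries lay above the 2 early ones for both genes. On FPKM those of Rpl36al overlapped, with 271 at E18.5 and 211 in the adult. How many of all genes showed that order was not counted. The step from PN2 to PN14 was log2 0.93 ± 0.18 for Rps27l (adjusted p = 0.0171) and 0.86 ± 0.21 for Rpl36al (adjusted p = 0.0308). On library size alone the values were 0.27 and 0.20 and neither passed, but they stood 1.15 and 1.07 above the members' median on the TMM scale, a distance that scaling hardly touches.

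From PN14 to PN28 the median was −0.11 against −0.01 for all genes, and 76 of 83 members had a negative value, within the narrowest range of the comparisons (interquartile 0.09 against 0.496). No member was called by edgeR's quasi-likelihood test, by DESeq2 or by edgeR's exact test, none had an unadjusted p under 0.05, and 0.0178% of all genes were called. Rps27, whose counts are uncertain as given above, had the lowest value (−1.96 ± 1.10, adjusted p = 0.666), and it was the 1 member called lower on library size alone, where 0.995% of all genes were, and the 1 called with the libraries scaled to the members, where 1.71% were. This step depended on which PN14 mouse stood for the stage, since the median was −0.24 without replicate 1 and −0.01 without replicate 2.

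From PN28 to adult most members lay higher. The median was 0.24 against −0.01 for all genes, 74 of 83 members had a positive value, and the interquartile range was 0.182 against 0.784. On library size the median was 0.10 against −0.15 and 63 were positive. Again 0 members were called by edgeR's quasi-likelihood test, with 0.521% of all genes called, and 1 had an unadjusted p under 0.05. By DESeq2 and by the exact test 0 were called. The member with that p was Rps20, of the head of the small subunit, which had 474 normalized CPM at E18.5, 431 at PN2, 234 and 280 for the PN14 mice, 237 at PN28 and 439 in the adult. Its adult library lay near PN2 and above all of PN14 and PN28, and the step from PN28 was log2 0.89 ± 0.34 (adjusted p = 0.254). The next smallest p were those of Rps4y2 (−0.68 ± 0.31), Rpl22 (0.55 ± 0.25), Rpl10 (0.55 ± 0.33), which is added late to the large subunit at the joint between the subunits, and Rps25 (0.49 ± 0.31), known from internal ribosome entry, and none of the 4 passed. Rps27 (0.94 ± 1.20) and Rpl4 (0.62 ± 0.44) lay above Rpl22 with larger errors.

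**Figure D2:**
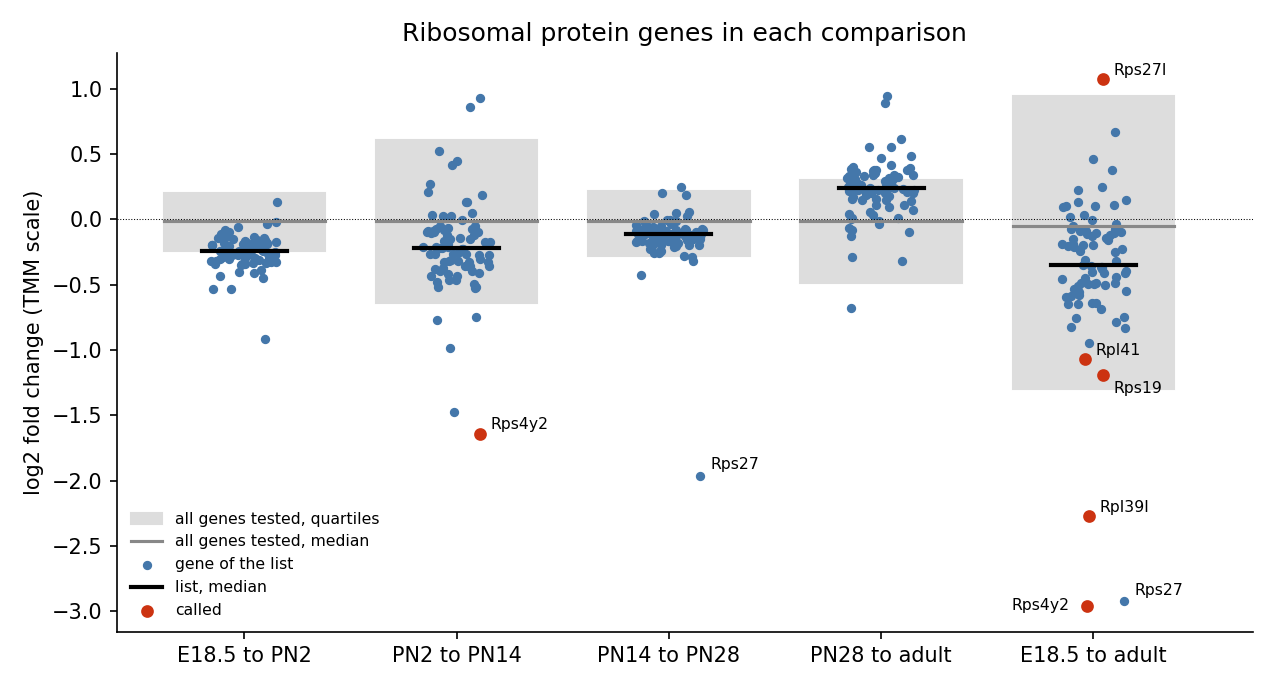
Fitted log2 fold change (TMM scale) of the 83 tested ribosomal protein genes in each comparison, as points, with their median as a black line; grey boxes and lines are the quartiles and the median of all 16882 genes tested, and red points are called genes. The members sit in a narrower band than all genes, which were not matched for level, in every comparison. From PN2 to PN14, 1 was called, and 5 from E18.5 to adult.

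Across the whole period, from E18.5 to adult, 5 members were called, 1 higher and 4 lower, where 44.9% of all genes were called (21.4% higher and 23.6% lower). The members' median was −0.35 against −0.05, with 69 negative and 14 positive values and an interquartile range of 0.451 against 2.25. Scaled to library size, the median was −1.38 against −1.08, the split was 82 negative to 1 positive, and 69 members were called lower where 45.6% of all genes were. The large subunit symbols had a median of −0.21 (49 tested) and the small subunit symbols of −0.47 (34 tested), a difference that was not tested.

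Among the members called lower, the abundant ones were Rps19 and Rpl41. Rps19, needed to mature the small subunit and the gene most often mutated in Diamond-Blackfan anaemia, lies at chr7:25669390-25674825 in mm9 (+ strand). It had 326 normalized CPM at E18.5, 276 at PN2, 133 and 189 for the PN14 mice, 132 at PN28 and 143 in the adult. Rpl41 had 566, 447, 339 and 383, 289 and 270. For both genes, E18.5 and PN2 lay above every later library. The change from E18.5 to adult was log2 −1.19 ± 0.35 for Rps19 (adjusted p = 0.0304) and −1.07 ± 0.34 for Rpl41 (adjusted p = 0.0412). These were 0.84 and 0.72 below the members' median, and with the libraries scaled to the members neither passed (adjusted p = 0.242 and 0.371). That scaling called 4 members, Rps27l higher and Rps4y2, Rps27 and Rpl39l lower, where 47.2% of all genes were called.

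Rpl39, which lines the exit tunnel, is X-linked and lay just short of the 2-fold limit, with 278 normalized CPM at E18.5, 230 at PN2, 155 and 203 for the PN14 mice, 151 at PN28 and 144 in the adult (log2 −0.95 ± 0.31, adjusted p = 0.0449). Counting it, 6 members passed the adjusted p, where 54.9% of all genes did. Rps27a, Rps7 and Rpl36a followed with −0.83 ± 0.34, −0.83 ± 0.33 and −0.79 ± 0.27 and did not pass. At the upper edge, Rps27l was the called one, with log2 1.07 ± 0.21 (adjusted p = 0.00764). On library size its change was 0.05 (adjusted p = 0.927), and with genes limited to a mean of at least 1 CPM it was 0.99, just short of 2-fold, so its call rests on the scaling. It stood 1.42 above the members' median, and with the libraries scaled to the members its change was 1.39 ± 0.51 (adjusted p = 0.0164).

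Other members of the upper edge did not pass. Rpl36al had log2 0.67 ± 0.24 (adjusted p = 0.0561), Rpl24, of the bridge between the subunits, 0.38 ± 0.31, Rpl4, whose long arm reaches into the tunnel, 0.25 ± 0.44, Rps25 0.23 ± 0.31 and Rps2 0.15 ± 0.45. All 5 of these were negative on library size alone, Rpl36al at −0.36. Rps2 had 886 normalized CPM at E18.5, 710 at PN2, 952 and 981 for the PN14 mice, 959 at PN28 and 982 in the adult. It also has 25 genome copies at 95% identity. In Rps2 PN2 was the lowest library and the other 5 lay close together. Rpl4 had 951 at E18.5, 835 at PN2, 678 and 750 for the PN14 mice, 736 at PN28 and 1128 in the adult, its highest library.

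**Figure D3:**
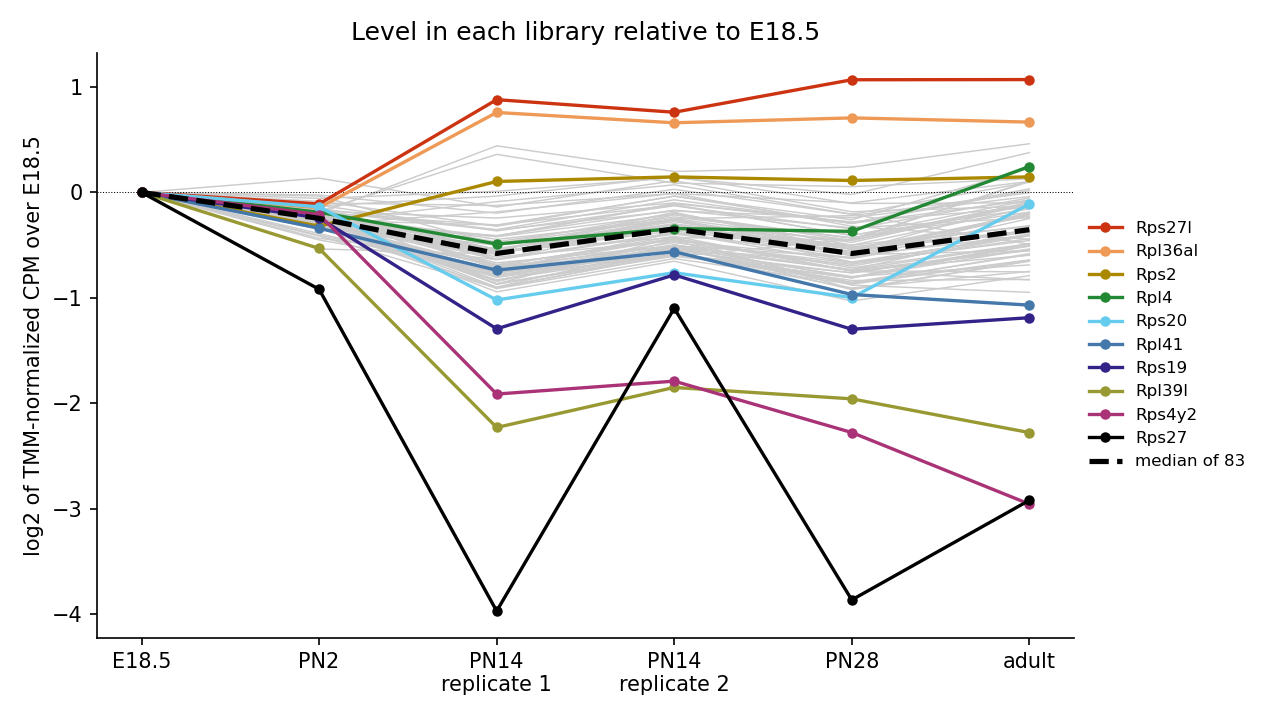
Level of the 83 tested ribosomal protein genes in each library as log2 of TMM-normalized CPM over E18.5, with grey lines for single genes, coloured lines for 10 named genes and a dashed line for the median; each point is a single library and lines only join the same gene. Rps27l and Rpl36al lie above the group from PN14 on, Rps4y2, Rpl39l and Rps19 lie below it, and Rps27 differs widely between the PN14 replicates.

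The genes grouped by role lay on both sides of the members' median from E18.5 to adult, and none was called. For the stalk, Rplp0 had 1235 normalized CPM at E18.5, 1093 at PN2, 1044 and 1153 for the PN14 mice, 1017 at PN28 and 1119 in the adult, and Rplp1 and Rplp2 had E18.5 to adult values of −0.04 ± 0.36 and 0.03 ± 0.30 (log2). These 3 lay 0.21 to 0.39 above the members' median and 0 of 3 passed the test. For Rpl5 and Rpl11, which with 5S ribosomal RNA form the particle that binds Mdm2, the values were −0.51 ± 0.37 and −0.55 ± 0.33, and neither passed. Rps27a is made as a fusion with ubiquitin, and Fau as one with a ubiquitin-like protein. Fau and Gnb2l1, the scaffold also called Rack1, lie outside the list and had −0.52 ± 0.30 and −0.42 ± 0.38, and neither was called.

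Within a library the share of a paralog in its pair needs no scaling. The first 60 coding bases of 4 pairs, from GENCODE M1 in mm9, are shown to compare the paralogs. Reads may also be shared with the genome copies counted above. At 95% identity or more, Rps27 had 5, Rps27l 0, Rpl36a 7 and Rpl36al 1. Capitals mark the bases that differ between the members of a pair.
Rps27l (chr9:66793893-66797323, + strand): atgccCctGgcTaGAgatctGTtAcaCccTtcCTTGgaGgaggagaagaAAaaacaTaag
Rps27 (chr3:90016593-90017573, - strand): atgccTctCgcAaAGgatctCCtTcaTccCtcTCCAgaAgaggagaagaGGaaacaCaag
Rpl36al (chr12:70283718-70285070, - strand): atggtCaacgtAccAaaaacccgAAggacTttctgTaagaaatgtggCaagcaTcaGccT
Rpl36a (chrX:131120193-131122601, + strand): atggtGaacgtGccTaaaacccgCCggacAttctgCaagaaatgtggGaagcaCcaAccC
Rpl39l (chr16:10170319-10175004, + strand): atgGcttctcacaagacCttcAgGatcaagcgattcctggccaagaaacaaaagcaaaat
Rpl39 (chrX:34622515-34625397, - strand): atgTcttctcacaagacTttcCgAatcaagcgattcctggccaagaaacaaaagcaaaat
Rps4y2 (chr6:148303178-148304120, + strand): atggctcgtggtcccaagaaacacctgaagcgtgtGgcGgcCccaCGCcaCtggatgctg
Rps4x (chrX:99380280-99384733, - strand): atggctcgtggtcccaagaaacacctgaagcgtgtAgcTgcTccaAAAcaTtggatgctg

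Over the whole coding sequence the pairs were 76.1% identical for Rps27l and Rps27, with 61 differences, 87.9% for Rpl36al and Rpl36a, with 39, 85.3% for Rpl39l and Rpl39, with 23, and 79.8% for Rps4y2 and Rps4x, with 160. Rpl22l1 and Rpl22 were 66.9% identical and Rpl7l1 and Rpl7 50.3%.

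The clearest shift was in the Rpl36a pair, where Rpl36al made up 28.6% of the pair's FPKM at E18.5 and 30.8% at PN2, then 56.5% and 49.8% for the PN14 mice, 57.1% at PN28 and 52.3% in the adult. The early and late libraries did not overlap, and the pair's balance went from mostly the X-linked gene to about even. In FPKM, Rpl36al held between 211 and 296 in all libraries while Rpl36a went from 678 at E18.5 to 192 in the adult. Both genes have genome copies, and the part of read sharing in this shift was not tested. For Rps27l the share was 71.8% at E18.5, 82.8% at PN2, 99.2% and 90.4% for the PN14 mice, 99.2% at PN28 and 98.5% in the adult. That share follows Rps27, which had 1.05 and 15.3 FPKM in the PN14 mice and is uncertain as given above, while Rps27l itself held between 114 and 145 FPKM.

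Other pairs moved less or at low level. Rpl22l1 stayed between 60.3% and 68.8% of the FPKM of its pair with Rpl22, with no order by age, but between 22.9% and 30.2% of the pair's counts, so which of the 2 is the larger depends on the gene lengths used. Rpl7l1, a nucleolar protein of ribosome assembly, was at 3.17% of its pair with Rpl7 at E18.5, 4.50% and 4.52% at PN14 and 2.89% in the adult. Rps4y2 went from 1.33% of the pair with Rps4x at E18.5 to 0.651% and 0.576% at PN14 and 0.270% in the adult, lower in each of the later libraries. Rpl39l, known from male germ cells, had 153 counts at E18.5, 105 at PN2, 15 and 28 for the PN14 mice, 20 at PN28 and 14 in the adult, or 0.108% of the pair's FPKM at E18.5 and 0.0428% in the adult. It was called lower from E18.5 to adult (log2 −2.27 ± 0.59, adjusted p = 0.0212), though not by DESeq2 (adjusted p = 0.213), and Rps4y2 was called lower too (−2.96 ± 0.32, adjusted p = 0.00174). Both were rare copies at every stage.

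**Figure D4:**
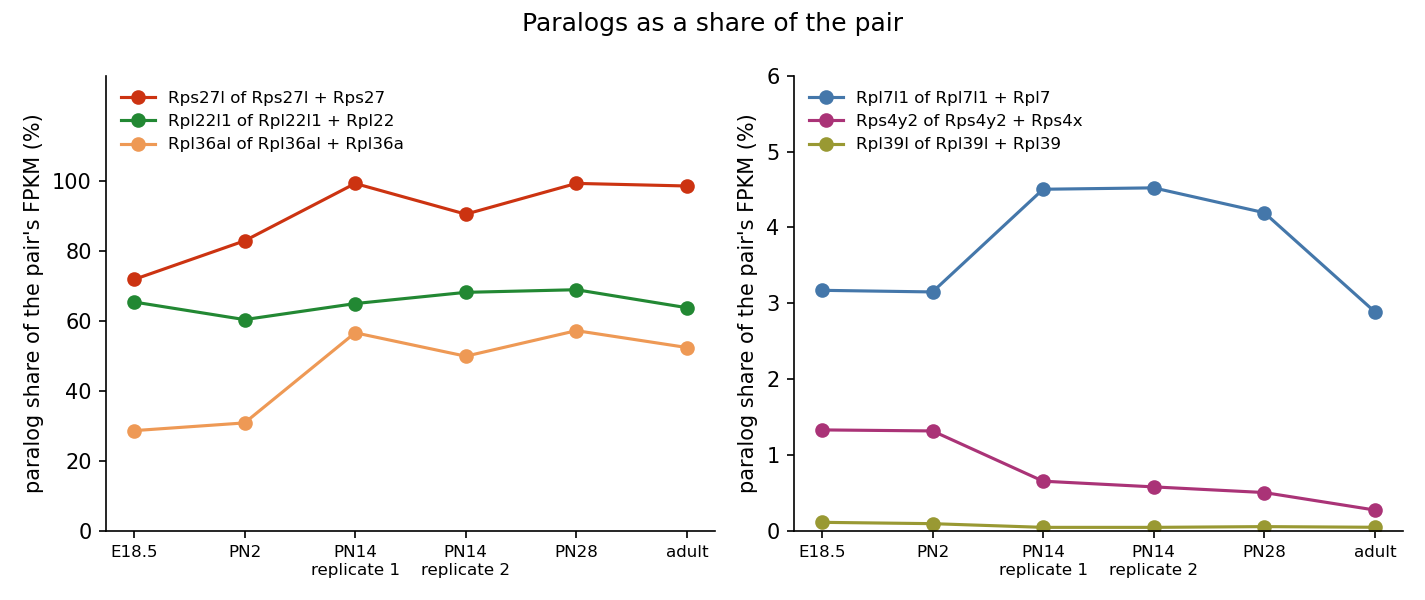
Share of each paralog in the summed FPKM of the paralog and its partner, in percent, by library, with 3 pairs at high share on the left and 3 at low share on the right (the axes differ); each point is a single library. Rpl36al goes from 28.6% at E18.5 to between 49.8% and 57.1% from PN14 on, while Rps4y2 goes from 1.33% to 0.270%.

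The 2 mice of PN14 differed in these genes as a group. On TMM-normalized CPM, 79 of the 83 members were higher in replicate 2, with a median log2 ratio of 0.25 and quartiles of 0.19 and 0.29, while all genes had a median of 0.01 and quartiles of −0.18 and 0.22. The exceptions were Rpl26, Rpl34, Rps27l and Rpl36al. On shares of counts, 82 were higher in replicate 2. This difference between animals of the same stage is as large as the members' median shift in any of the 4 intervals on the TMM scale. Replicate 2 also had more summed FPKM of proliferation genes, 107 against 62.7, of satellite cell genes, 46.4 against 34.1, of fibroblast genes, 2150 against 1784, of endothelial genes, 292 against 194, and of immune genes, 91.6 against 67.6. It had less of the myofibre genes, 131589 against 163968, and of the erythroid genes, 1225 against 2211. The part of these in the difference was not tested.

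Members with a higher ratio of replicate 2 to replicate 1 tended to have a higher ratio of E18.5 to PN28. Between the log2 ratio of replicate 2 to replicate 1 and that of E18.5 to PN28, which share no library, Pearson's r was 0.70 and Spearman's rho 0.48 across the 77 members with a mean of at least 10 CPM. This is a description across genes, which are not independent replicates, and which share libraries, depth and read sharing with copies. Rps19 had the highest ratio between the PN14 mice of these members (0.51) and Rps27l and Rpl36al were below 0.

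**Figure D5:**
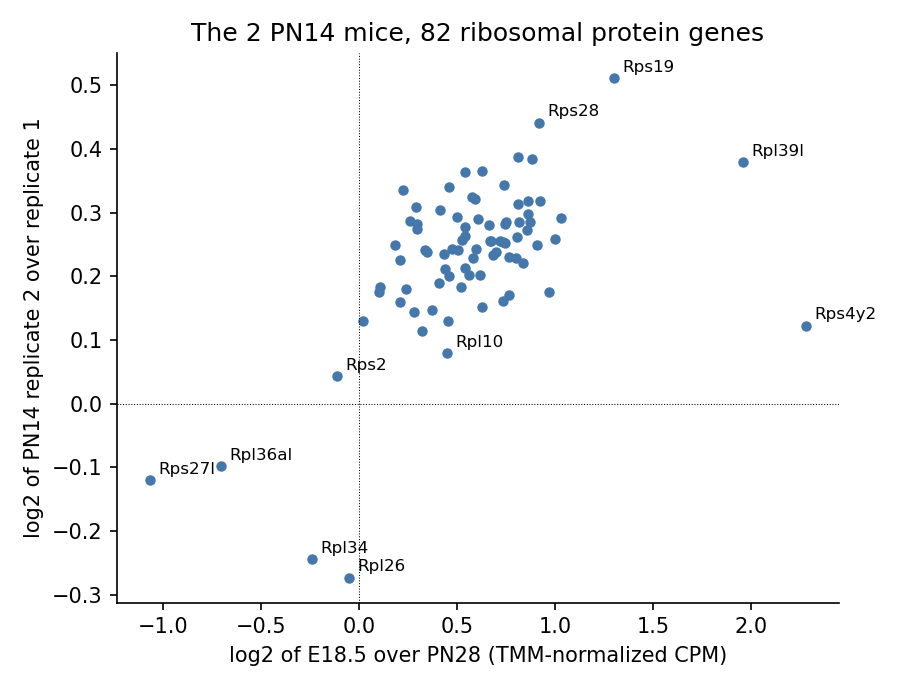
Log2 ratio of PN14 replicate 2 to replicate 1 (vertical) against the log2 ratio of E18.5 to PN28 (horizontal), both of TMM-normalized CPM, with 1 point per ribosomal protein gene; Rps27, at 2.87 on the vertical axis, is left out. Most points lie above 0 on both axes, and Rps27l and Rpl36al lie below 0 on both.

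On the TMM scale, other lists of the ribosome pathway had medians on the other side of 0 from the members from E18.5 to adult. On library size alone the medians were negative too, at −0.72 for ribosome biogenesis, −0.59 for RNA polymerase I and −0.31 for initiation factors. That of the members was −1.38. The difference from the members was not tested. From PN28 to adult the TMM medians lay close to that of the members, at 0.20 for ribosome biogenesis, 0.22 for RNA polymerase I and 0.20 for initiation factors. Of 57 ribosome biogenesis genes, 3 were called higher and 3 lower from E18.5 to adult, where 21.4% of all genes were called higher and 23.6% lower, with a median of 0.31 against −0.35 for the members and −0.05 for all genes. The lowest were Nop58 (−1.33 ± 0.23) and Fbl (−1.22 ± 0.21), which belong to the particle that methylates ribosomal RNA, and the highest Rrp12 (1.10 ± 0.20) and Wdr12 (1.09 ± 0.21). Of 14 genes of RNA polymerase I and its factors, 3 were called higher and 1 lower, with a median of 0.44. The highest was Taf1c (1.32 ± 0.23), a subunit of the selectivity factor, and the lowest Taf1d (−1.24 ± 0.25), of the same complex. On library size alone, 0 genes of either list were called higher and 16 and 5 lower, where 7.98% of all genes were called higher and 45.6% lower. Both medians still lay above that of all genes, by 0.36 and 0.49, distances that a change of scaling leaves nearly fixed.

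Of 35 initiation factors, 11 were called higher and 2 lower from E18.5 to adult, beside 21.4% and 23.6% of all genes, with a median of 0.72. Eif1, which guards start codon choice, had the highest value, 2.22 ± 0.37, followed by Eif5 at 1.51 ± 0.28, and the lowest was the RNA helicase subunit Eif4a1 at −1.16 ± 0.31, next to the poly(A)-binding protein Pabpc1 at −1.04 ± 0.33. Scaled to library size, 1 was called higher and 6 lower, beside 7.98% and 45.6% of all genes. Of 20 other genes known for TOP mRNAs, translation factors among them, 6 were called lower and 0 higher, with a median of 0.07, 10 negative and 10 positive values. Their pyrimidine runs were not checked here, and some, such as Eif3e, Pabpc1 and Npm1, are also in the lists above. From PN2 to PN14, 16 of those 20 were negative, with a median of −0.32 against −0.22 for the ribosomal protein genes.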

How the data were processed

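RNA-seq of 6 libraries at 5 stages was analysed. Per the labels and the study's methods, the authors aligned reads to mm9 with TopHat 2.0.5 and ran RSEM on RefSeq genes, and the deposited table gives an expected count, not normalized, per gene and library. The deposited FPKM values, also by the authors, are scaled to gene length and library counts. How RSEM shared reads among copies is not given in the sources used here.

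After rounding, the expected counts went into edgeR 4.0.16 (R 4.3.3) with TMM, filterByExpr by stage and the quasi-likelihood test, adjusted by Benjamini-Hochberg over 16882 genes. Every library entered the same fit. It had 1 residual degree of freedom, from PN14, a biological coefficient of variation of 0.188 and 4.86 prior degrees of freedom, so the spread at PN14 stood in for every stage. With 1 library at 4 stages no permutation test could be made. Errors of fold changes are SE worked back from the quasi-likelihood test, as the size of the log2 fold change over the square root of its F statistic. Alternatives were library size alone, DESeq2's size factors, the Wald test of DESeq2 1.42.0, edgeR's exact test, other filters, adjusted p alone and leaving out a PN14 library.

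Named members were the 6 highest and 6 lowest fold changes from E18.5 to adult and the 4 highest and 4 lowest from PN2 to PN14 among members with a mean of at least 10 CPM, the 5 highest in FPKM, paralogs with partners, the role groups, and those with the 5 smallest p in intervals without a call, of which the text gives at least the first. Members named for a low level, their gene model or genome copies were chosen after their values were seen. The members and lists were chosen with earlier results of these data known. Coordinates and coding sequences came from GENCODE M1 (mm9) and promoters from RefSeq (GRCm38.p6). Copies were found with BLAST 2.17.0, and Python 3.11.15 made the figures. The count test was tested on simulated data in which few genes changed, in both directions. That simulation did not cover differences in scaling as large as those between these libraries. Some genes are not reported here by name.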

Additional observations from a re-analysis of the deposited data

How the results depend on the processing

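Scaling mattered most. With library size alone, the members called, all lower, came to 22 for PN2 to PN14, 1 for PN14 to PN28 and 69 for E18.5 to adult, where the members' median was −0.86, −0.36 and −1.38. Only among the named members were fold changes that turned negative under library size listed. From PN2 to PN14 they were Rps2 −0.20, Rpl26 −0.25, Rpl7l1 −0.37, Rpl22l1 −0.51, Rpl24 −0.51, Rps19bp1 −0.61 and Rplp0 −0.64. From E18.5 to adult they were Rpl36al −0.36, Rpl24 −0.65, Rpl4 −0.78, Rps25 −0.80, Rps2 −0.88, Rpl26 −0.90, Rpl10 −0.92, Rpl22 −0.92 and Rplp2 −0.99. DESeq2's size factors turned Rplp0 from PN2 to PN14 (−0.0075) and no other named member. With the libraries scaled to the members, chosen after seeing the data, 2 members were called for PN2 to PN14 and 1 for PN14 to PN28. For PN2 to PN14, 2 were called with no filter and 2 by edgeR's exact test (Rpl39l beside Rps4y2 in each), and 3 by adjusted p alone. From E18.5 to adult, DESeq2's Wald test lost Rpl39l, and a mean of at least 1 CPM left Rpl39l untested, lost Rps27l and added Rpl39. No filter and the exact test each added Rps27. Shares of all genes called are given above for TMM, library size and the scaling to the members. For the other filters, DESeq2 and edgeR's exact test they were not counted, so those counts of members have no baseline here or above.

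Leaving out either PN14 library gives fold changes without a test. The median ranged from −0.35 to −0.10 for PN2 to PN14 and from −0.24 to −0.01 for PN14 to PN28. Among the named members, small values from PN2 to PN14 changed sign, with the higher value without replicate 1. This was so for Rplp1 (−0.18 to 0.0042), Rpl37 (−0.24 to 0.023), Rpl23a (−0.21 to 0.040), Rps25 (−0.24 to 0.049) and Rpl11 (−0.27 to 0.054). It was also so for Rplp2 (−0.17 to 0.14), Rps19bp1 (−0.027 to 0.090), Rpl22l1 (−0.051 to 0.29) and Rplp0 (−0.069 to 0.078). On FPKM the members' share was 13.3%, 11.5%, 4.36%, 6.24%, 4.15% and 4.78% from E18.5 to adult, and without the 5 members with the most counts it was 3.87% of counts at E18.5 and 3.25% at PN2. The causes were not tested. No paired analysis was possible because only PN14 has more than 1 library. What limits the calls of members was not tested.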

Other observations

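The elongation factor 1A genes, which deliver aminoacyl-tRNA to the ribosome, exchanged places while the ribosomal protein genes moved together. Eef1a1, itself a TOP mRNA, had 4848 FPKM at E18.5, 4378 at PN2, 528 and 998 for the PN14 mice, 454 at PN28 and 248 in the adult. Eef1a2, the form known from muscle and neurons, had 31.5, 75.3, 824 and 798, 745 and 794. The early and late libraries did not overlap for either gene. On FPKM, 61% of all genes tested had the order of Eef1a1, and how many had that of Eef1a2 was not counted. Both are from a list of 8 elongation genes with a median of 0.36 from E18.5 to adult. Of these, 1 was called higher and 2 lower, beside 21.4% and 23.6% of all genes. From E18.5 to adult, Eef1a1 was called lower (log2 −3.27 ± 0.76, adjusted p = 0.0147, edgeR quasi-likelihood test) and Eef1a2 higher (5.68 ± 0.64, adjusted p = 0.00183), directions that library size alone did not change (−4.29 and 4.66).

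Of 17 genes known to regulate growth and the translation of TOP mRNAs, 6 were called higher and 3 lower from E18.5 to adult, and together these come near the 44.9% of all genes that were called. The lower ones were Mycn (−2.62 ± 0.42), Myc (−2.28 ± 0.34) and Akt1 (−2.08 ± 0.29), and the highest were Eif4ebp2 (2.06 ± 0.26), a repressor of cap-dependent initiation, and Maf1 (2.00 ± 0.24), a repressor of RNA polymerase III. Myc had 12.5 FPKM at E18.5, 8.69 at PN2, 2.81 and 5.05 for the PN14 mice, 3.59 at PN28 and 1.27 in the adult. Scaled to library size, 1 of the 17 was called higher and 5 lower, beside 7.98% and 45.6% of all genes. Larp1 had 27.5 FPKM at E18.5 and 32.3 in the adult.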
